A study of Mus musculus with 24 samples.

Results

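The genes described here encode the SR proteins, the hnRNP proteins and the SF3A, SF3B and U2AF subunits, the RNA-binding proteins that choose splice sites in pre-mRNA. They were taken by symbol: names beginning with Srsf, Hnrnp or Hnrp, Sf3a, Sf3b, U2af1 or U2af2, provided that the mean count reached 10 in vehicle-treated fibroblasts. Of 43 matching genes, 42 met that minimum, out of 43626 genes listed and 15605 tested in those cells. They comprise 11 SR proteins, 20 hnRNP proteins, 3 SF3A subunits, 5 SF3B subunits and 3 U2AF genes. The lowest mean count inside the limit was 16.5 (Srsf12), and the gene outside it, Hnrnpa1l2-ps, had 0.0. Every one is annotated as protein-coding in GRCm38.

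RNA-seq of poly(A) RNA compared mouse cells with and without Mof, the gene also called Kat8 that encodes an acetyltransferase of lysine 16 on histone H4. The 24 samples form 8 groups of 3. Embryonic fibroblasts of the mouse (MEFs) at passage 2, either wild type or Mof knockout, received DMSO vehicle or Adriamycin (doxorubicin, a DNA-damaging anthracycline) at 0.1 µg/ml for 24 h. MPC5 cells, a conditionally immortalised podocyte line used after differentiation at passage 20, carried a scramble control or a Mof knockdown, and received vehicle or Adriamycin at 0.25 µg/ml for 24 h. The sources used here do not say how Mof was removed, nor whether samples of 1 group were grown apart. If they were not, the p-values measure technical spread only.

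Each of the 4 comparisons sets Mof-depleted against control cells within 1 cell type and 1 treatment, and no sample enters more than 1 of them. The authors' deposited tables give for each gene a mean normalised count over 6 samples, a log2 fold change with its standard error (SE) and a DESeq2 adjusted p. No value per sample was analysed here, so levels are given as the control and depleted group means that the mean count and the fold change imply with 3 samples a group. These group means carry no SD, and the depth of each library is unknown. A gene was called higher or lower where the DESeq2 adjusted p was below 0.05. The podocyte tables list called genes alone, so a gene that is not listed there has no value. The direction of the fold changes was read from Kat8, so the sign of its own change is no separate result. Kat8 itself fell in all 4 of the authors' deposited tables, at log2 fold changes of -1.96 ± 0.20, -1.71 ± 0.16, -1.49 ± 0.15 and -1.24 ± 0.14 in MEFs with vehicle, MEFs with Adriamycin, podocytes with vehicle and podocytes with Adriamycin, leaving 25.7%, 30.5%, 35.6% and 42.3% of its control level. Fibroblast genes were abundant in the MEFs (Col1a1 mean count 180211). Of the defining podocyte genes Nphs1 and Wt1 were listed in neither podocyte table, and Synpo and Podxl were listed in both. A listing there marks a called change, not a level. Mean counts of the 10 podocyte markers summed to 39769 in MEFs with vehicle. Those of the 2 fibroblast markers listed for podocytes with vehicle summed to 45050.

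A splice site is recognised in steps. U2AF binds the polypyrimidine tract and the AG at the intron's end, and SF3A and SF3B, both parts of the U2 snRNP, then hold U2 on the branch site. SR proteins, with RNA recognition motifs and a tail rich in arginine and serine, bind exonic enhancers and recruit U1 and U2AF. Many hnRNP proteins bind silencers and act against them, and others package, export or destabilise mRNA. Genes of both families limit their own output by splicing a premature stop codon into their transcripts, which nonsense-mediated decay then removes.

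Transcripts of that kind are annotated for many of these genes, which does not by itself show that a gene limits its own output. In GENCODE M21, 23 of the 42 (54.8%) have an annotated nonsense-mediated-decay transcript, against 3778 of 13657 tested protein-coding genes (27.7%) and 29.6% of those whose mean count reached 1000. A transcript with a retained intron is annotated for 31 of the 42 (73.8%), against 57.3% of the tested protein-coding genes and 68.3% of those whose mean count reached 1000. A count per gene adds such transcripts to the productive mRNA, so a change in such a count is one in the gene's summed transcripts.

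The promoters of 4 members are shown because these members moved in both directions in podocytes with Adriamycin: Hnrnpd and Srsf3 rose most there, while Srsf5 and Sf3a1 are 2 of the 4 that fell, Sf3a1 by the least of them. They were chosen among members with a single RefSeq promoter entry (GRCm38.p6) whose annotated start allowed a full 200-base window. An entry, single or not, exists for 37 of 42 members. The windows are chr5:99978939-99979138 on the minus strand for Hnrnpd, chr17:29032428-29032627 on the plus strand for Srsf3, chr12:80945299-80945498 on the plus strand for Srsf5 and chr11:4160150-4160349 on the plus strand for Sf3a1. Each is written 5′ to 3′ towards the gene's start. Capitals mark matches, on either strand, to the E-box CACGTG, the ETS sequence CCGGAAG, the CCAAT box, the TATA sequence TATAAA or the YY1 sequence AAGATGGC, none of which overlaps another here.
Hnrnpd: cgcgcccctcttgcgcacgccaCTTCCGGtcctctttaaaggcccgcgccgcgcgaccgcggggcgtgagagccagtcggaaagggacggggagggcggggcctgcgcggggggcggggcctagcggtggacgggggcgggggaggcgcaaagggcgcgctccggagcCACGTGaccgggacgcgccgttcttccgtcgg
Srsf3: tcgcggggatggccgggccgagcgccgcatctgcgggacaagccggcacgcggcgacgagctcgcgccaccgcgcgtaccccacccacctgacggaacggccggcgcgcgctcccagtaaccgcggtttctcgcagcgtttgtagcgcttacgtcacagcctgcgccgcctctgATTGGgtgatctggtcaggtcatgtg
Srsf5: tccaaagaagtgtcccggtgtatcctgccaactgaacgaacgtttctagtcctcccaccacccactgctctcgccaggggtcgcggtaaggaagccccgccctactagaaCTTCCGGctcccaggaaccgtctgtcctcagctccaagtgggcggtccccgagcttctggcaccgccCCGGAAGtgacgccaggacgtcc
Sf3a1: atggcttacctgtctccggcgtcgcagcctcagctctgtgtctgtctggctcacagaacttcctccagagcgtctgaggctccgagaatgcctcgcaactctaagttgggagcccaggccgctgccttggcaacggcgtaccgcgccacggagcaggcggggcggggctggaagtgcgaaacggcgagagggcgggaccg
All 4 windows are rich in G and C, at 77%, 70%, 63% and 66%. The ETS sequence occurs in Hnrnpd, which rose, and 2 times in Srsf5, which fell. The same windows of Srsf1 and Srsf7, which rose and are not printed, held no match. Over the whole 300-base promoter entries, the ETS sequence was found in 11 of 37 members (29.7%), 9.93% of all genes, 18.5% of the other tested genes and 20.2% of other tested genes whose mean count reached 1000. The CCAAT box was found in 54.1% of members and 42.7% of the other tested genes, the E-box in 13.5% and 11.5%, the TATA sequence in 13.5% and 9.14%, and the YY1 sequence in 5.41% and 4.93%. A match describes letters in a window, not a bound site.

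In fibroblasts with vehicle, most of the family was lower without Mof. The authors' deposited table had 22 of the 42 genes lower (52.4%) and 1, Sf3b1, higher (2.38%). Over all 15605 tested genes, 37.5% changed: 19.6% were lower and 17.8% higher. The median log2 fold change was -0.23 for the members and 0.01 for all tested genes. Among tested genes whose mean count reached 1000, 21.3% were lower, and 20 of the 38 members at that level (52.6%) were.

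**Figure D1:**
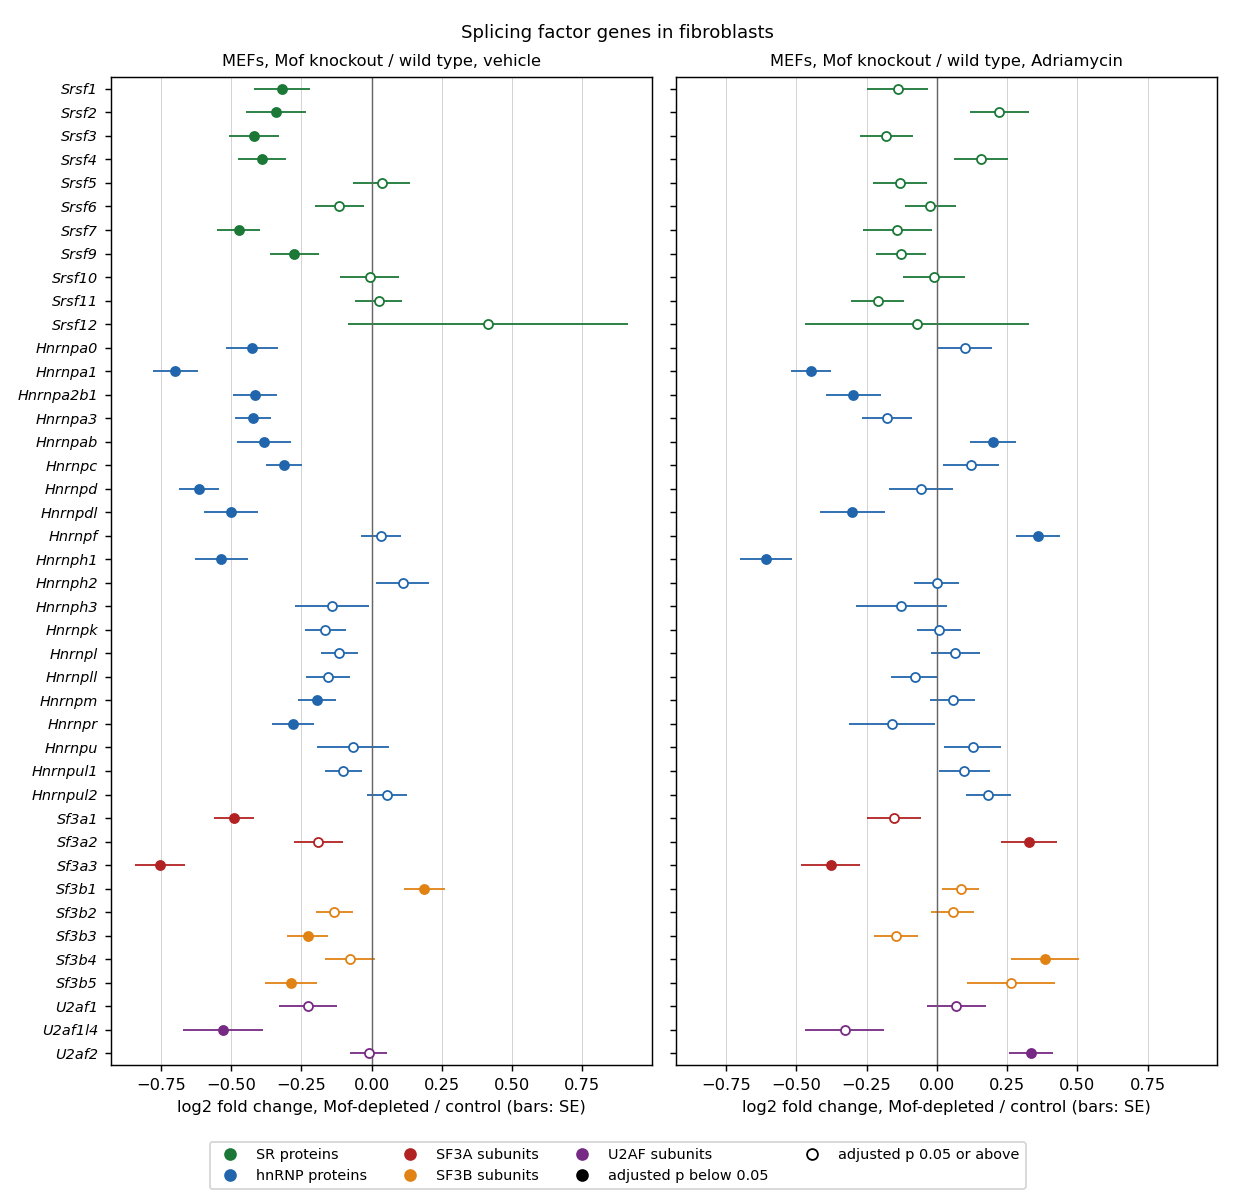
Log2 fold change (x axis, Mof knockout over wild type, with SE bars) of the 42 splicing factor genes (rows) in MEFs with vehicle (left) and with Adriamycin (right). Filled points have a DESeq2 adjusted p below 0.05: 22 lower and 1 higher on the left, 5 lower and 5 higher on the right.

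Of the 11 SR proteins, 6 were lower with vehicle and none was higher, and the median change was -0.27 on the log2 scale in the authors' deposited table. Srsf7, which also serves mRNA export, had implied means of 2725 in wild-type and 1964 in knockout MEFs, a log2 fold change of -0.47 ± 0.08 (SE; DESeq2 adjusted p = 9.55e-09 in the authors' deposited table). Srsf3, the smallest SR protein and an export adaptor, went from 4996 to 3740 (-0.42 ± 0.09, DESeq2 adjusted p = 2.78e-05 in the authors' deposited table). Srsf4 went from 1388 to 1060 (-0.39 ± 0.09, DESeq2 adjusted p = 4.58e-05 in the authors' deposited table). Srsf1, the founding SR protein and a splice-site selector, Srsf2, which stays in the nucleus, and Srsf9 fell too, at log2 fold changes of -0.32 ± 0.10, -0.34 ± 0.11 and -0.27 ± 0.09. The other 5 did not pass: Srsf5 (0.04), Srsf6 (-0.11), Srsf10 (-0.01), Srsf11 (0.03) and Srsf12 (0.41 ± 0.50). Within 1 family, calls of -0.27 to -0.47 thus stood beside 5 genes with no call. The large SE of Srsf12 goes with its mean count of 16.5.

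Among the 20 hnRNP proteins, 11 were lower with vehicle and none was higher, at a median of -0.24 on the log2 scale in the authors' deposited table. All 5 genes whose symbol begins with Hnrnpa, among them packaging proteins and splicing repressors, were lower. Hnrnpa1 (chromosome 15, 103240432 to 103246692, plus strand) had implied means of 11407 in wild-type and 7033 in knockout MEFs, 61.7% of the control level (-0.70 ± 0.08, DESeq2 adjusted p = 3.43e-16 in the authors' deposited table). Hnrnpa0, Hnrnpa2b1, Hnrnpa3 and Hnrnpab also fell, at -0.42 ± 0.09, -0.42 ± 0.08, -0.42 ± 0.06 and -0.38 ± 0.10 on the log2 scale. Hnrnpd, known as AUF1, a binder of AU-rich elements that promotes mRNA decay (chromosome 5, 99955935 to 99978938, minus strand; promoter above), went from 3977 to 2596 (-0.62 ± 0.07, DESeq2 adjusted p = 1.6e-16 in the authors' deposited table). Its close relative Hnrnpdl went from 3965 to 2803 (-0.50 ± 0.10).

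The G-run binders of the F/H group did not move together. Hnrnph1 had implied means of 9264 and 6392 (-0.54 ± 0.09, DESeq2 adjusted p = 1.53e-07 in the authors' deposited table), whereas Hnrnpf (0.03 ± 0.07), Hnrnph2 (0.11 ± 0.09) and Hnrnph3 (-0.14 ± 0.13) did not pass. Hnrnpc, which binds uridine tracts, Hnrnpm and Hnrnpr fell, at -0.31 ± 0.06, -0.19 ± 0.07 and -0.28 ± 0.08. The poly(C) binder Hnrnpk (-0.16, DESeq2 adjusted p = 0.062 in the authors' deposited table), the CA-repeat binder Hnrnpl (-0.12), Hnrnpll (-0.15), the nuclear scaffold protein Hnrnpu (-0.07) and its relatives Hnrnpul1 (-0.10) and Hnrnpul2 (0.06) did not pass.

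The core factors at the branch site were divided. Sf3a3, the subunit of the SF3A trimer also called SF3a60 (chromosome 4, 124714776 to 124732460, plus strand), fell most of all 42 genes, with implied means of 1733 and 1029, 59.4% of the control level (-0.75 ± 0.09, DESeq2 adjusted p = 7.63e-16 in the authors' deposited table). Sf3a1 went from 3180 to 2266 (-0.49 ± 0.07), and Sf3a2 from 1628 to 1427 without passing (-0.19, DESeq2 adjusted p = 0.0735 in the authors' deposited table). In SF3B, Sf3b3 and Sf3b5 fell (-0.23 ± 0.07 and -0.29 ± 0.09), Sf3b2 (-0.13) and Sf3b4 (-0.07) did not pass, and Sf3b1, the branch-site clamp, rose from 7535 to 8583 (0.19 ± 0.07, DESeq2 adjusted p = 0.0307 in the authors' deposited table). Both complexes thus held called and uncalled subunits, and SF3B held calls in both directions.

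Of the U2AF genes, only the small-subunit paralogue U2af1l4 passed with vehicle, from 299 to 207 (-0.53 ± 0.14, DESeq2 adjusted p = 0.00102 in the authors' deposited table). U2af2, the large subunit that binds the polypyrimidine tract, was at -0.01 ± 0.07, and U2af1, which reads the AG, at -0.22 ± 0.10 (DESeq2 adjusted p = 0.0713 in the authors' deposited table). The value for U2af1l4 is uncertain, because 65.6% of its exon bases are shared with Gm49396 on the same strand.

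Per kilobase of merged exons, the mean count with vehicle was highest for Hnrnpab (3794), Hnrnpa1 (2924), Hnrnpa2b1 (2501), Hnrnpk (2234), Srsf2 (1943) and Hnrnpa0 (1877), and lowest for Srsf12 (5.23). Of those 6 genes of highest level, 5 fell, the exception being Hnrnpk. How far neighbours in this order differ cannot be given, since the spread over samples is unknown.

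Genes of the cell cycle moved with the fall. All 15 mitosis genes and 13 of 15 DNA replication genes were lower in vehicle-treated knockout MEFs, at median log2 fold changes of -1.30 and -0.68 in the authors' deposited table. Their summed implied means went from 40691 to 17028 and from 39975 to 24946. Their part in the splicing factor result was not tested. Of 9 macrophage markers 5 were higher, with a summed implied mean of 2351 in wild-type and 4541 in knockout MEFs, and 2 of 4 tested epithelial markers were higher (1358 and 1787 summed). None of 5 tested endothelial markers passed, at a median of 0.41 (474 and 469 summed over 6 genes). Of 10 fibroblast markers 3 were higher (Lum at 2.42, Dcn at 1.42 and Fn1 at 0.29) and Col1a2 was lower (-0.33), with sums of 539155 and 557505. The part of other cell types in the result was not tested, and fewer cells of a type cannot be told apart from less RNA per cell in bulk samples.

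In MEFs with Adriamycin, 5 members were lower and another 5 were higher. All 42 members were tested, and the authors' deposited table had 11.9% of them higher and 11.9% lower, at a median of -0.02. Of all 14139 tested genes 32.7% changed, 16.6% higher and 16.1% lower, also at a median of -0.02. Of tested genes whose mean count reached 1000, 27.8% were higher and 12.3% lower (median 0.07), and of the 38 members at that level 13.2% were higher and 13.2% lower. None of the 11 SR proteins passed, and their changes lay between -0.21 (Srsf11) and 0.22 (Srsf2).

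The genes lower in this comparison were 4 hnRNP genes and Sf3a3, and all 5 were lower with vehicle too. Hnrnph1 had implied means of 6515 and 4276 (-0.61 ± 0.09, DESeq2 adjusted p = 1.72e-09 in the authors' deposited table). Hnrnpa1 went from 6143 to 4507 (-0.45 ± 0.07, DESeq2 adjusted p = 2.19e-08 in the authors' deposited table). Sf3a3 went from 1235 to 951 (-0.38 ± 0.10, DESeq2 adjusted p = 0.00206 in the authors' deposited table). Hnrnpdl and Hnrnpa2b1 fell as well, at -0.30 ± 0.12 and -0.30 ± 0.10. Of these, Hnrnpa1 and Hnrnpa2b1 are packaging proteins, Hnrnph1 is a G-run binder and Sf3a3 a U2 subunit.

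The genes higher with Adriamycin were Hnrnpf, U2af2, Sf3a2, Sf3b4 and Hnrnpab. Hnrnpf had implied means of 2661 and 3414 (0.36 ± 0.08, DESeq2 adjusted p = 5.41e-05 in the authors' deposited table). U2af2 had implied means of 4125 and 5208 (0.34 ± 0.08, DESeq2 adjusted p = 0.000198 in the authors' deposited table). Sf3b4, an SF3B subunit that contacts RNA next to the branch site, rose from 1429 to 1865 (0.38 ± 0.12), and Sf3a2 from 1180 to 1482 (0.33 ± 0.10). Hnrnpab alone crossed from lower with vehicle (11943 to 9165) to higher with Adriamycin (5853 to 6717, 0.20 ± 0.08, DESeq2 adjusted p = 0.0481 in the authors' deposited table). The call for Hnrnpab ended when p was adjusted over all 27432 genes with a p (adjusted p = 0.0916), as did that for Hnrnpdl (0.0611), which left 4 members higher and 4 lower. The paralogues Hnrnpf and Hnrnph1 thus moved in opposite directions in the same cells.

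The difference between the drug conditions was tested for each gene by subtracting the vehicle fold change from the Adriamycin one, with a z test from the authors' fold changes and SEs and Benjamini-Hochberg adjustment over the 13973 genes tested in both. The test assumes independent normal errors. Of the 42 members 11 differed, all 11 with the higher value under Adriamycin, and none the other way. Over all genes 7.09% differed and 3.49% were higher with Adriamycin. The difference was above 0 for 35 members, with a median of 0.20 against -0.02 over all genes. The smallest adjusted p belonged to Hnrnpab (0.58 ± 0.13, adjusted p = 0.000281), Srsf4 (0.55 ± 0.13, adjusted p = 0.00126) and Hnrnpd (0.56 ± 0.13, adjusted p = 0.00161). Hnrnpd went from 3977 to 2596 with vehicle and from 2094 to 2014 with Adriamycin. Srsf2, likewise, went from 6424 to 5071 with vehicle and from 2919 to 3405 with Adriamycin. No difference was called for the genes lower in both conditions, at 0.37 ± 0.14 for Sf3a3 (adjusted p = 0.0717), 0.25 ± 0.11 for Hnrnpa1, 0.20 ± 0.15 for Hnrnpdl, 0.12 ± 0.13 for Hnrnpa2b1 and -0.07 ± 0.13 for Hnrnph1. Among the SR proteins that lost their call with Adriamycin, Srsf7 (0.33 ± 0.14, adjusted p = 0.15) and Srsf3 (0.24 ± 0.13, adjusted p = 0.298) did not differ between the drug conditions by this test, so a loss of the call is not shown to be a different response.

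**Figure D2:**
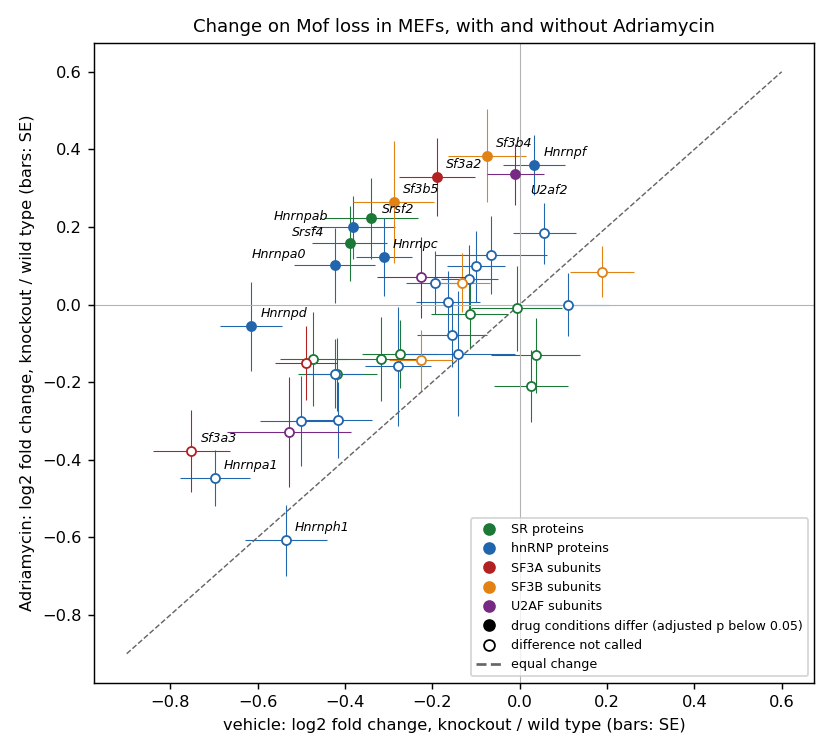
Log2 fold change in MEFs with vehicle (x axis) against that with Adriamycin (y axis), Mof knockout over wild type. All of the 42 splicing factor genes are drawn except Srsf12, whose difference was -0.48 ± 0.64. Points above the diagonal have the higher value with Adriamycin, as 35 of the 42 members do. The 11 filled points differ between the drug conditions at an adjusted p below 0.05 (z test).

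For the cell-cycle lists the difference between drug conditions was not tested. The mitosis genes had summed implied means of 1722 in wild-type and 1265 in knockout MEFs with Adriamycin, and 3 of 14 tested were lower, at a median of -0.68. The DNA replication genes summed to 8086 and 7930, with 2 higher and 3 lower of 15 and a median of -0.21. No macrophage marker passed with Adriamycin (4490 and 6001 summed). The part of these genes' behaviour in the splicing factor difference was not tested. Sums from different tables were normalised separately.

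In podocytes the members were nearly all unlisted with vehicle and nearly all higher with Adriamycin. The authors' deposited table for vehicle lists 2 of the 42 (4.76%), both higher: Srsf4 (0.25 ± 0.08, DESeq2 adjusted p = 0.0303) and Hnrnpul1, a relative of Hnrnpu (0.23 ± 0.09, DESeq2 adjusted p = 0.0463). Of 13876 genes tested there, 14.3% were listed and 8.70% were higher. With Adriamycin the authors' deposited table lists 38 members, 34 higher (81.0% of the 42) and 4 lower. Of 17184 genes tested, 55.7% were listed, 27.8% higher and 27.9% lower. Among listed genes the share higher was 89.5% for members and 49.9% for all. Where the mean count reached 1000 it was 91.4% for members and 43.7% for all listed genes.

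**Figure D3:**
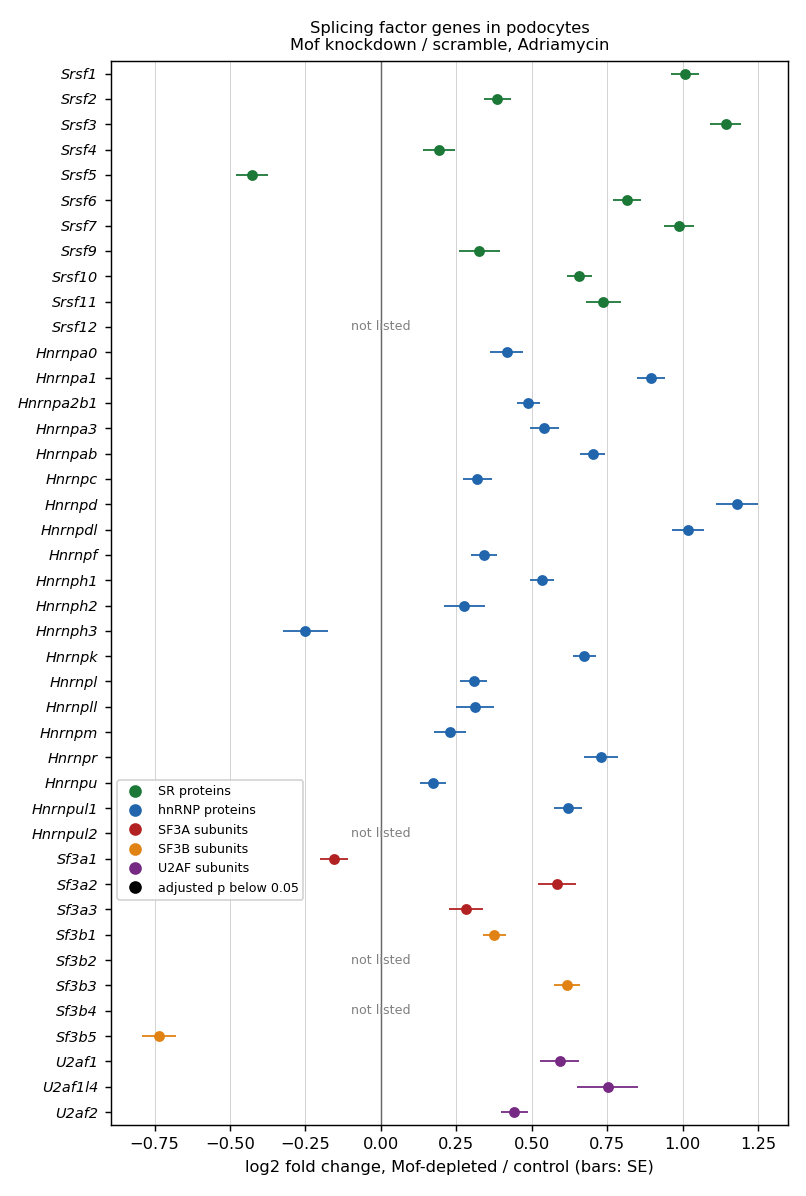
Log2 fold change (x axis, Mof knockdown over scramble, with SE bars) of the 38 splicing factor genes listed for podocytes with Adriamycin, in rows by class. The 34 points right of 0 include 18 hnRNP and 9 SR genes, and 4 genes lie left of 0.

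Of the 11 SR proteins 9 rose, 1 fell and Srsf12 was not listed, with a median of 0.70 over those listed. Srsf3 (chromosome 17, 29032628 to 29043373, plus strand) had implied means of 2524 in scramble and 5573 in knockdown podocytes, 2.21-fold (1.14 ± 0.05, DESeq2 adjusted p = 1.41e-112 in the authors' deposited table). Srsf1 went from 4070 to 8187 (1.01 ± 0.05, DESeq2 adjusted p = 1.12e-104 in the authors' deposited table). Srsf7 went from 2229 to 4422 (0.99 ± 0.05, DESeq2 adjusted p = 4.13e-82 in the authors' deposited table). All 3 were among the 5 largest rises of the 42 genes. Srsf6 (0.82), Srsf11 (0.74), Srsf10 (0.66), Srsf2 (0.39), Srsf9 (0.33) and Srsf4 (0.19) rose less. Srsf5 (chromosome 12, 80945504 to 80950507, plus strand) fell from 9792 to 7278 (-0.43 ± 0.05, DESeq2 adjusted p = 4.88e-15 in the authors' deposited table).

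Of the 20 hnRNP proteins 18 rose, Hnrnph3 fell from 983 to 827 (-0.25 ± 0.07) and Hnrnpul2 was not listed. Hnrnpd had the largest rise of all members, from 1947 to 4410 or 2.27-fold (1.18 ± 0.07, DESeq2 adjusted p = 4.69e-64 in the authors' deposited table). Hnrnpdl went from 2507 to 5072 (1.02 ± 0.05) and Hnrnpa1 from 7304 to 13590 (0.90 ± 0.05, DESeq2 adjusted p = 2.38e-83 in the authors' deposited table). Hnrnpr (0.73), Hnrnpab (0.70), Hnrnpk (0.67) and Hnrnpul1 (0.62) followed, and the smallest rises were Hnrnpm (0.23) and Hnrnpu (0.17). In the F/H group Hnrnph1 (0.53), Hnrnpf (0.34) and Hnrnph2 (0.28) rose, opposite to Hnrnph3.

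Core subunits were again divided. Sf3b5, the smallest SF3B subunit (chromosome 10, 13005343 to 13009183, plus strand), had the largest fall, from 3044 to 1827 (-0.74 ± 0.06, DESeq2 adjusted p = 4.69e-37 in the authors' deposited table). Sf3a1 fell from 3776 to 3388 (-0.16 ± 0.05, DESeq2 adjusted p = 0.00179 in the authors' deposited table). Their partners rose: Sf3b3 by 0.62 ± 0.04, Sf3a2 by 0.59 ± 0.06, Sf3b1 by 0.38 ± 0.04 and Sf3a3 by 0.28 ± 0.06 in the authors' deposited table. Sf3b2 and Sf3b4 were not listed. All 3 U2AF genes rose, U2af1l4 by 0.75 ± 0.10, U2af1 by 0.59 ± 0.06 and U2af2 by 0.44 ± 0.04.

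DNA replication genes rose in the same podocytes, 15 of 15, at a median of 0.52 in the authors' deposited table and summed implied means of 58803 and 86317. Of the mitosis genes 6 rose and 6 fell among 12 listed (36713 and 42835 summed). Of the markers, 2 of 10 fibroblast genes were listed (198 and 130 summed), 3 of 9 macrophage genes (1213 and 1071), 2 of 6 epithelial genes, both higher (1298 and 2243), no endothelial gene, and 5 of 10 podocyte genes, 4 higher and 1 lower (15329 and 22897). Their part in the splicing factor result was not tested.

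Set side by side, the changes of many members in vehicle-treated MEFs and in Adriamycin-treated podocytes had opposite signs. Of the 22 members lower in the MEFs, 20 were higher in the podocytes (90.9%, and 58.8% of the 34 higher there), and Sf3a1 and Sf3b5 were lower in both. Of the 16 listed members that were not lower in the MEFs, 14 were higher in the podocytes (87.5%). Among all genes listed in both, 1536 of the 2182 lower in the MEFs were higher in the podocytes (70.4%, and 33.3% of the 4617 higher there). Across the 38 members in both tables Spearman's rho of the fold changes was -0.32, and across 9002 other genes it was -0.30. Genes are not independent replicates. Hnrnpd and Hnrnpa1 were at -0.62 and -0.70 in MEFs and 1.18 and 0.90 in podocytes. The 5 genes lower in Adriamycin-treated MEFs were likewise all higher in Adriamycin-treated podocytes, Hnrnph1 at -0.61 and 0.53 among them. Hnrnpf, Sf3a2, U2af2 and Hnrnpab were higher in both cell types with Adriamycin. The difference between the cell types was not tested, because the podocyte tables list called genes alone, and cell type, dose and mode of depletion cannot be told apart.

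**Figure D4:**
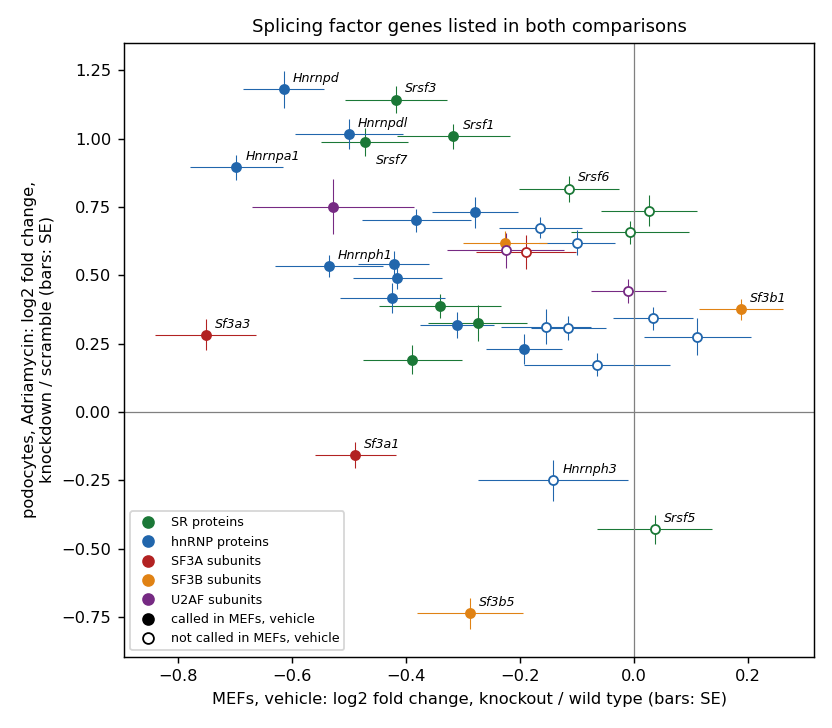
Log2 fold change in MEFs with vehicle (x axis, knockout over wild type) against podocytes with Adriamycin (y axis, knockdown over scramble) for the 38 splicing factor genes listed in both. Filled points in the upper left field are the 20 genes called lower in MEFs and higher in podocytes, with Hnrnpd highest and Sf3a3 furthest left. Open points in that field were not called in the MEFs.

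Other splicing genes were read from 10 further lists with 179 matched genes. With vehicle in MEFs 82 of 174 tested were lower and 13 higher, against 19.6% and 17.8% of all tested genes. With Adriamycin in MEFs 23 of 175 were lower and 19 higher, against 16.1% and 16.6% of all tested genes. Neither of these Adriamycin counts exceeds the share over all genes. In podocytes with Adriamycin 133 were listed, 92 higher and 41 lower, against 49.9% higher among all listed genes. With vehicle in podocytes 13 were listed, 7 higher and 6 lower, against 60.7% higher among all listed genes. Medians were -0.18 and -0.05 in the MEF comparisons and 0.30 over those listed in podocytes with Adriamycin. In podocytes with Adriamycin, 18 of the 21 listed SR-related proteins and 14 of the 15 listed hnRNP proteins with other symbols were higher, against 8 of 17 for the Prp19 complex and catalytic step.

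**Figure D5:**
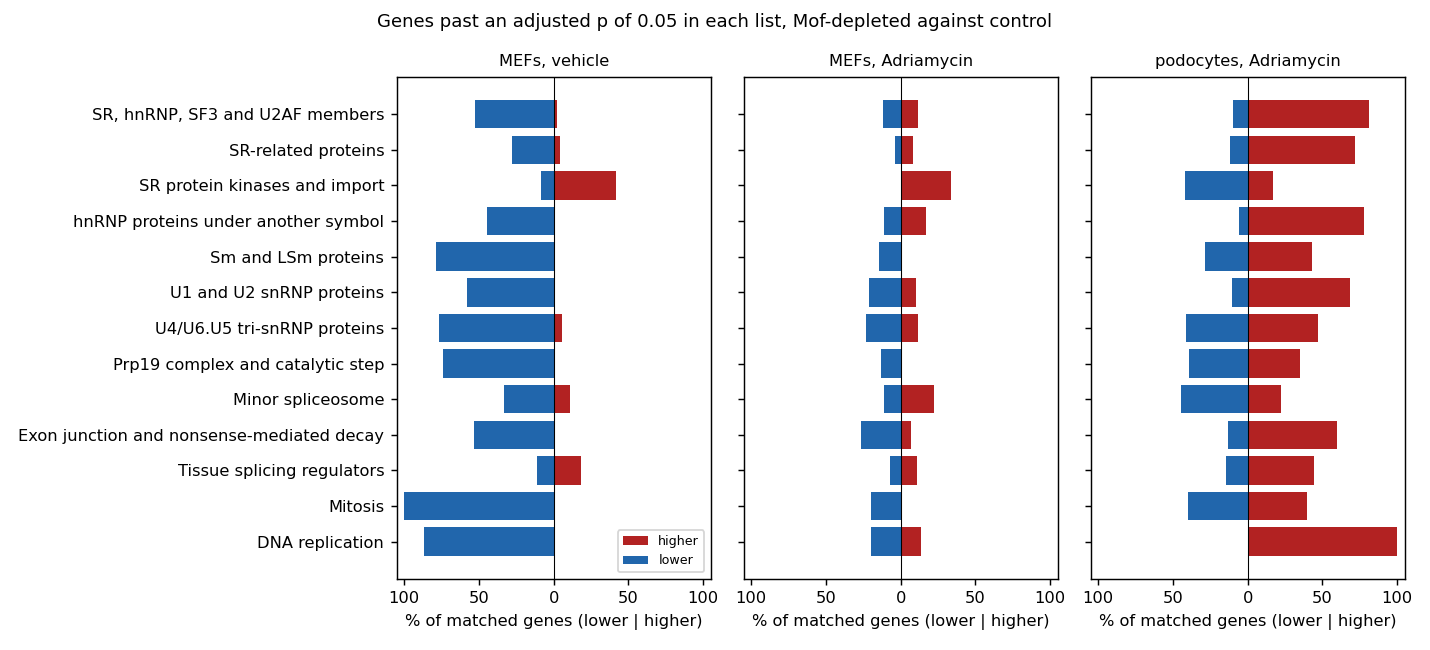
Share of matched genes (x axis, in %) called lower (left of 0) and higher (right of 0) for the 42 members and each list of splicing, mitosis or replication genes (rows) in MEFs with vehicle, MEFs with Adriamycin and podocytes with Adriamycin. In MEFs with vehicle 11 of 14 Sm and LSm genes and 17 of 23 Prp19 and catalytic genes lie to the left, and in podocytes with Adriamycin 18 of 25 SR-related genes lie to the right. Over all tested genes 19.6% were lower in MEFs with vehicle and 27.8% were higher in podocytes with Adriamycin.

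The relatives with other names were read in the same way, beside 19.6% lower and 17.8% higher over all tested genes in MEFs with vehicle. In MEFs with vehicle 8 of 18 hnRNP proteins with other symbols were lower and none was higher. Rbmx, also known as hnRNP G, fell in the authors' deposited tables for MEFs, at -0.94 ± 0.11 with vehicle and -0.57 ± 0.14 with Adriamycin, and rose by 1.06 ± 0.08 in podocytes with Adriamycin. Ptbp1, or hnRNP I, a binder of pyrimidine tracts, was at -0.37 ± 0.08, 0.29 ± 0.10 and -0.28 ± 0.05 in the same 3 comparisons. Of 25 SR-related proteins 7 were lower and 1 higher in MEFs with vehicle, among them Srek1ip1 at -0.61 ± 0.14 and Rsrc1 at -0.47 ± 0.10.

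Of the proteins of the snRNPs and the catalytic spliceosome, these were lower in MEFs with vehicle: 11 of 14 Sm and LSm proteins (median -0.47), 11 of 19 U1 and U2 proteins, 13 of 17 tri-snRNP proteins and 17 of 23 in the Prp19 and catalytic list (median -0.38), with 0, 0, 1 and 0 higher. Lsm5 and Lsm3, of the ring on U6, were at -1.38 ± 0.18 and -0.97 ± 0.13, and Ppih, a cyclophilin of the tri-snRNP, at -1.45 ± 0.15 in the authors' deposited table. The exception was Txnl4a, a U5 component, which rose by 0.71 ± 0.09 with vehicle and by 0.83 ± 0.10 with Adriamycin in MEFs and fell by 0.50 ± 0.09 in podocytes with Adriamycin. With Adriamycin in MEFs the lower counts were 2, 4, 4 and 3 of the same lists. Over all tested MEF genes 19.6% were lower with vehicle and 16.1% with Adriamycin, and 49.9% of genes listed for podocytes with Adriamycin were higher. In podocytes with Adriamycin, 6 Sm and LSm proteins rose and 4 fell, and the counts were 13 and 2 for U1 and U2 and 8 and 7 for the tri-snRNP.

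Among SR protein kinases and nuclear import receptors, 5 of 11 tested were higher and 1 lower in MEFs with vehicle, against 17.8% and 19.6% of all tested genes. Srpk2, a cytoplasmic SR protein kinase, rose by 0.41 ± 0.10, and Tnpo2, a transportin, by 0.37 ± 0.09, while Tnpo3, the importer of phosphorylated SR proteins, fell by 0.37 ± 0.07 in the authors' deposited table. With Adriamycin 4 of 11 were higher in MEFs and none was lower, against 16.6% and 16.1% of all tested genes. In podocytes with Adriamycin 2 rose and 5 fell, among them Tnpo2 at -0.40 ± 0.04 and Tnpo3 at -0.17 ± 0.06. The largest fall there was that of the kinase Clk3, at -0.97 ± 0.06. In MEFs Clk3 was higher, at 0.23 ± 0.09 with vehicle and 0.38 ± 0.11 with Adriamycin.

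The machinery that removes transcripts with premature stops was lower in MEFs with vehicle for 8 of 15 genes and higher for none. In MEFs with Adriamycin 4 were lower and 1 higher, and in podocytes with Adriamycin 9 were higher and 2 lower of 11 listed. Over all tested MEF genes 19.6% were lower with vehicle and 16.1% with Adriamycin, and 49.9% of all genes listed for those podocytes were higher. The exon junction core proteins Rbm8a and Magohb fell in MEFs with vehicle (-0.47 ± 0.09 and -0.83 ± 0.17) and rose by 0.66 ± 0.06 and 0.93 ± 0.13 in the authors' deposited table for podocytes with Adriamycin. These counts do not separate decay from transcription of the splicing factor genes.

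How reads were assigned limits some of these values. The sources used here do not state whether counting used strand, and exons of Srsf4 (43.0% of bases, with Gm12992), Hnrnpab (29.1%, with Phykpl), Sf3a2 (16.1%, with Plekhj1) and Srsf2 (15.6%, with Mettl23) overlap a gene on the opposite strand. Smaller overlaps of this kind were found for other members, among them Hnrnpu (6.93%, with Cox20), Hnrnpd (5.24%, with Gm17092) and Sf3b4 (3.93%, with Gm17690). Hnrnpm shares 14.7% of its exon bases with March2 on the same strand, which no use of strand separates. Near-identical pseudogenes (at least 95% identity over at least 300 bases) exist for 13 members, 57 copies in all, of which Hnrnpa3 has 26 and Hnrnpa1 has 9. The counts listed for these copies came to at most 5.18% of a member's own count, for Hnrnpa1, where 7 of the 9 copies are listed. How reads that match both a member and a copy were counted is not stated. This share therefore does not measure the reads that a member lost or gained.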

How the data were processed

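Poly(A) RNA of 24 samples in 8 groups of 3 was sequenced. The submitters' processing notes name GRCm38, DESeq2 1.4.1, featureCounts 1.4.5-p1 and TopHat2 2.0.13, with no settings. The authors deposited 4 comparison tables with a mean normalised count per gene (a signal over 6 samples), the log2 fold change and its SE, the Wald score (the fold change over its SE), and raw and adjusted p-values. The deposited p-values and the authors' log2 values were used as they stand. Whether fold changes were shrunk is not given. The implied group means take each fold change as the ratio of the group means, which holds only without shrinkage. The direction, depleted over control, was read from Kat8. Genes tested in the podocyte tables were derived from p over adjusted p.

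From these, group means were derived, and the drug difference in MEFs was tested as a z value with Benjamini-Hochberg adjustment over 13973 genes (Python 3.11.15, scipy 1.17.1). The calculation was first run on simulated fold changes with independent normal errors of the deposited SEs. Since the test assumes the same, that run cannot show whether these errors hold in the samples. Stricter p, fold and count limits, centring and adjustment over all genes were tried. Promoters came from RefSeq (GRCm38.p6), gene models from GENCODE M21. Depth per library is unknown, so no counting interval can be given. The members and lists were chosen with earlier results of these data known. Named were every member, Kat8, and from each other list up to 4 genes, those with the smallest adjusted p in MEFs, 2 in each direction; other genes were chosen after their values were seen.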

Additional observations from a re-analysis of the deposited data

Results flagged for a closer look

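In MEFs, 11 members had a change upon Mof loss that differed between Adriamycin and vehicle by the z test of the difference, and this is what singled them out. On the log2 scale, with the vehicle change subtracted from the Adriamycin change, the hnRNP genes were Hnrnpab at 0.58, Hnrnpd at 0.56, Hnrnpa0 at 0.53, Hnrnpc at 0.43 and Hnrnpf at 0.33. The SR genes were Srsf2 at 0.56 and Srsf4 at 0.55. The core subunits were Sf3b5 at 0.55, Sf3a2 at 0.52, Sf3b4 at 0.46 and U2af2 at 0.35. Adjusted p ran from 0.000281 (Hnrnpab) to 0.038 (Sf3b5). For Hnrnpab, Srsf4, Sf3a2, Srsf2, Hnrnpd (5.24% of bases) and Sf3b4 (3.93%), part of the exons overlaps a gene on the opposite strand. The part of that overlap was not tested. No group was screened for a sample that stands apart, since no value per sample was analysed here.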

How the results depend on the processing

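At an adjusted p below 0.01 instead of 0.05, the members higher in MEFs with vehicle went from 1 to 0, those lower in MEFs with Adriamycin from 5 to 3, those listed in podocytes with vehicle (all higher) from 2 to 0, and those differing between drug conditions (all higher with Adriamycin) from 11 to 7. With a log2 fold change of at least 0.3 required as well, Sf3b1 was no longer called in MEFs with vehicle (0 higher), 0 members were called in podocytes with vehicle (0 higher), and 2 instead of 4 were lower in podocytes with Adriamycin. Other counts stayed within 1.5 times: 17 to 23 lower in MEFs with vehicle and 31 to 38 changed in podocytes with Adriamycin. No called member reversed under the alternatives run; subtracting the median of all tested genes changed the sign of 2 uncalled members in MEFs with Adriamycin, Hnrnph2 and Srsf10. No paired analysis was possible because the tables hold comparisons and no value per sample, so that leaving out a replicate could not be run either. Adjustment over all genes was not run for the podocyte tables, which list called genes alone.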

Other observations

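Regulators that set tissue-specific splicing were called in both directions in MEFs. With vehicle 5 of 23 tested were higher and 3 lower, and with Adriamycin 3 were higher and 2 lower of 24, in the authors' deposited tables. Over all tested genes 17.8% were higher and 19.6% lower with vehicle, and 16.6% and 16.1% with Adriamycin. The counts of these regulators lie near or below those shares. Celf5, a CELF family member, rose by 2.45 ± 0.47 on the log2 scale and Mbnl2, a muscleblind protein, by 0.40 with vehicle, while Celf2 and Rbm10 fell, at -0.54 and -0.48. In podocytes with Adriamycin 12 were higher and 4 lower of 16 listed, against 49.9% higher among all listed genes, and Rbm10 rose by 1.27. Of the 9 proteins of the minor spliceosome, 1 was higher (Zrsr1, 0.78) and 3 lower (Snrnp25 at -1.17, Pdcd7 at -0.46 and Zcrb1 at -0.38) in MEFs with vehicle, and 2 were higher and 4 lower in podocytes with Adriamycin.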
